A study of Mus musculus with 7 samples.

Results

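Expression of 10 genes, taken by symbol from 23282 measured rows, was described in mouse uterus. They comprise the glucocorticoid receptor gene Nr3c1, the glucocorticoid-responsive genes Fkbp5, Tsc22d3, Sgk1, Zbtb16 and Klf9, the metallothionein genes Mt1 and Mt2, and the corticosteroid-converting enzymes Hsd11b1 and Hsd11b2. Each gene held 1 row, and all 10 passed the filters on low values. Uterine horns of 6-week-old C57BL/6 female mice were infused with saline or with 100 ng of recombinant human CXCL12, a chemokine, in 30 µl of saline. One horn of a mouse received CXCL12 and the opposite horn received saline, so that the saline-treated tissue came from animals that were also exposed to the chemokine. QuantSeq, which counts reads at the 3′ end of polyadenylated transcripts, was run on 2 saline-treated libraries, 2 CXCL12 libraries taken on Day 3 and 3 taken on Day 8. No day is stated in the labels for the saline-treated tissue, nor whether each library came from its own mouse, so P values measure only the spread between these libraries.

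Glucocorticoids bind the receptor encoded by Nr3c1 in the cytoplasm, where it is held by heat-shock protein chaperones, and the occupied receptor enters the nucleus and activates genes that carry its response elements. FKBP5 is a co-chaperone that lowers the affinity of the receptor for hormone, TSC22D3 (GILZ) is an anti-inflammatory protein, SGK1 is a kinase that promotes sodium transport, and ZBTB16 (PLZF) and KLF9 are zinc-finger transcription factors. The progesterone receptor is a close relative that binds similar elements, and several of these genes also respond to progestins. Metallothioneins are small cysteine-rich proteins that bind zinc and copper, and their genes are activated by the zinc-sensing factor MTF1 as well as by glucocorticoids and oxidative stress. HSD11B1 regenerates active corticosterone from its inert keto form and HSD11B2 inactivates it.

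The libraries deposited as counts held between 6908790 and 12308982 counts. Markers of uterine epithelium, stroma, smooth muscle and endothelium were detected in every library, and the summed normalized count of 5 epithelial markers ranged from 4234 to 9689. The library labelled Day 8 replicate 1 was kept at Day 8, but its table is named for Day 3. Over all tested genes its log2 values correlated at a Pearson r of 0.948 and 0.949 with the Day 3 libraries and at 0.901 and 0.899 with Day 8 replicates 2 and 3, which correlated with each other at 0.937. It also correlated at 0.945 with saline replicate 2 and at 0.897 with saline replicate 1. Marker genes of ovary summed to 33686 normalized counts in Day 8 replicate 2 and 10974 in saline replicate 2, against 58.3 to 1625 in the other 5 libraries. Values are quantile-normalized counts unless stated. Day 8 was compared with saline by edgeR on the counts, and Day 3 was compared with both other groups by limma on the log2 scale. A gene was called at a fold change of at least 2 with an unadjusted P under 0.05.

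Mt1 and Mt2 were the only members that were higher in all 3 Day 8 libraries than in each of the other 4. The share of all genes in that state was not counted. Groups did not overlap in either direction for 18.8% of genes between Day 8 and saline and 31.5% between Day 8 and Day 3. Mt1 lies at chr8:94178883-94180327 and Mt2 at chr8:94172618-94173567, on the plus strand of GRCm38. RefSeq promoter windows of GRCm38.p6, from 250 bases before to 50 bases after a start, matched 7 of the 10 members, and those of Nr3c1, Zbtb16 and Hsd11b2 were not used here. The core of the metal response element bound by MTF1 was searched as TGCACNC or TGCGCNC on both strands. The Mt2 window held 4 cores and the Mt1 window 3, where 25.7% of the 32851 windows held at least 1, 1.97% at least 3 and 0.517% at least 4. The 250 bases before the Mt2 start are shown because they hold 3 of its cores, and the bases around the core that precedes the Mt1 start are shown beside them, with the cores in capitals.
Mt2, chr8:94172368-94172617, plus strand: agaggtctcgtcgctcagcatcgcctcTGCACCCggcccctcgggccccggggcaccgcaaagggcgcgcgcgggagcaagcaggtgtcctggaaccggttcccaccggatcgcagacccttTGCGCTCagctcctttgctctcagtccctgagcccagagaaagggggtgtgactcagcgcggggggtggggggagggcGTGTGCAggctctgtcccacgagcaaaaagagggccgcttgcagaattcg
Mt1, chr8:94179053-94179080, plus strand: ggcggtcccgctgTGCACACtggcgctc
With the start counted as 0, the printed Mt2 cores lay at -223 to -217, -128 to -122 and -50 to -44, and the printed Mt1 core at -23 to -17. The printed stretch of Mt2 is upstream of the gene and inside an exon of the antisense transcript Gm45774, and that of Mt1 lies within the RefSeq gene span and before the GENCODE M21 start. A match of letters is a description of the sequence and not evidence of a bound site.

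Mt1 stood at 2413 and 2597 normalized counts in the saline-treated libraries, 1348 and 1302 on Day 3, and 3878, 4130 and 3987 on Day 8. The 3 groups did not overlap, with the Day 3 libraries lowest and the Day 8 libraries highest. The share of all genes in that state was not counted either. Taken in pairs, groups did not overlap for 46.2% of genes between Day 3 and saline. That share was 31.5% between Day 8 and Day 3 and 18.8% between Day 8 and saline. The means were 2505 ± 130 (SD, n = 2) in saline, 1325 ± 32.0 (SD, n = 2) on Day 3 and 3998 ± 127 (SD, n = 3) on Day 8. Mt2 stood at 1038 and 2165 in the saline-treated libraries, 1012 and 866 on Day 3, and 3766, 3997 and 5219 on Day 8. Its Day 8 libraries were above all others, and saline replicate 1 exceeded the higher Day 3 library by a small margin only. The means of Mt2 were 1601 ± 797 (SD, n = 2), 939 ± 103 (SD, n = 2) and 4327 ± 780.5 (SD, n = 3) in the same order.

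Between Day 3 and Day 8 both metallothionein genes rose. The log2 fold change of Mt1 was 1.59 with a standard error of 0.18, and it had the smallest P of 15270 genes (limma, unadjusted P = 1.73e-05, adjusted p = 0.264). Mt2 changed by 2.19 with a standard error of 0.32 and ranked 3 by P (limma, unadjusted P = 0.000136, adjusted p = 0.457). Both were called in 11 of 11 alternative settings, with log2 fold changes of 1.10 to 1.61 for Mt1 and 1.62 to 2.29 for Mt2. The lowest value of each was obtained when Day 8 replicate 1 was counted with Day 3. Adjusted p of Mt1 ranged from 0.0149 to 1 over the alternatives, and that of Mt2 from 0.0526 to 1.

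Against saline, Mt2 rose on Day 8 by 1.51 on the log2 scale with a standard error of 0.40 (edgeR, unadjusted P = 0.00701, adjusted p = 0.956). It was called in 12 of 13 alternative settings, with values from 1.06 without saline replicate 1 to 2.18 without saline replicate 2, and it lost the call when Day 8 replicate 1 was counted with Day 3 (edgeR, unadjusted P = 0.0518). Mt1 differed by 0.80 with a standard error of 0.26 (edgeR, unadjusted P = 0.0188, adjusted p = 0.956), and its fold change of 1.74 was under the threshold. On Day 3 the difference of Mt1 from saline was -0.92 on the log2 scale with a standard error of 0.19 (limma, unadjusted P = 0.00141, adjusted p = 0.629), a fold change of 1.89 downward that also missed the threshold. The Day 3 difference of Mt2 was -0.68 with a standard error of 0.35 (limma, unadjusted P = 0.0914), and it was -1.22 without saline replicate 1 and -0.15 without saline replicate 2. The ratio of Mt1 to Mt2 reads within a library fell between 1.20 and 2.18 in the saline-treated and Day 3 libraries and between 0.738 and 1.07 on Day 8.

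Marker lists of other tissues were read beside these values. Ovary markers summed to 1625 and 10974 in saline, 58.3 and 76.8 on Day 3, and 901, 33686 and 98.7 on Day 8. Adipocyte markers summed to 10098 and 28619 in saline, 26372 and 3059 on Day 3, and 2460, 3847 and 2652 on Day 8. The part of these tissues in the Mt1 and Mt2 values was not tested. Neither Mt1 nor Mt2 shared any of 251 words of 50 bases from its last 300 transcript bases with another gene of GENCODE M21. The last bases of Mt2 overlap an exon of Gm45774 on the opposite strand, and whether counting used strand is not given in the sources used here.

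**Figure D1:**
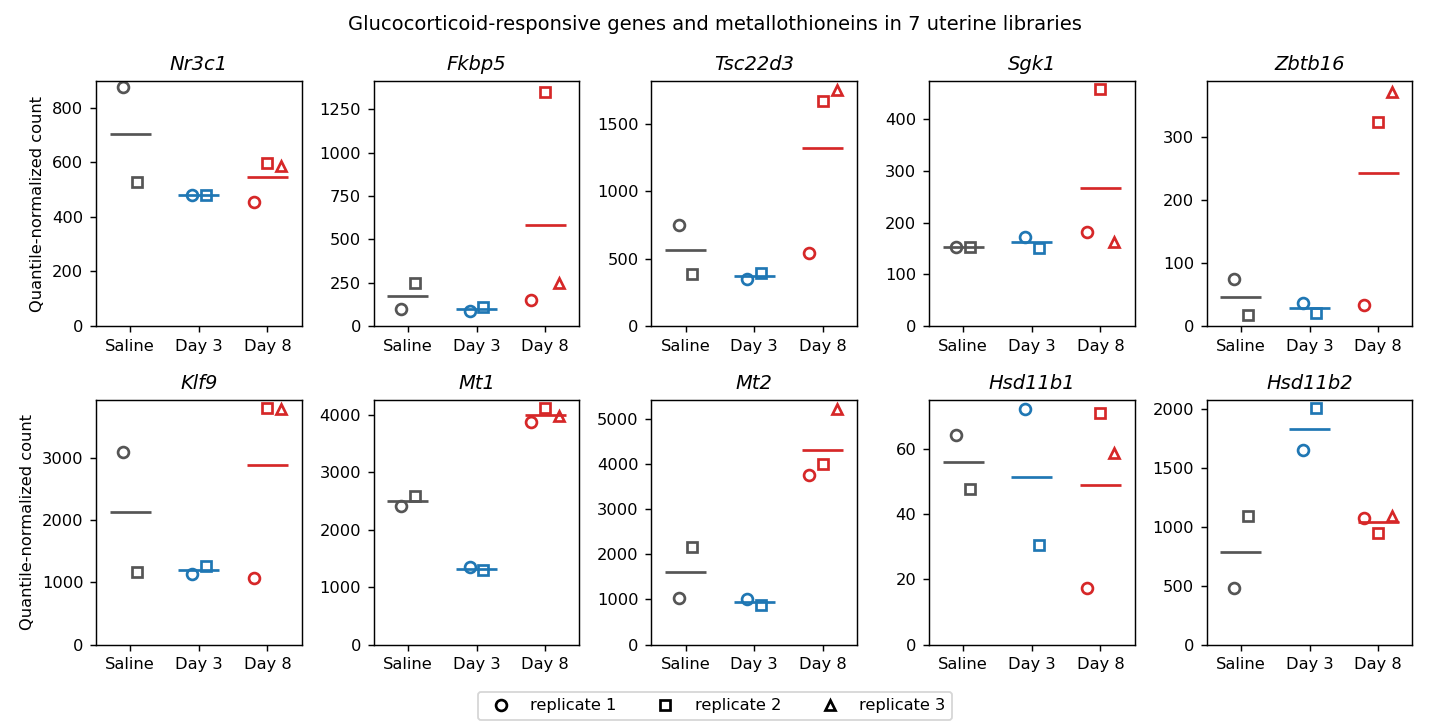
Quantile-normalized counts (vertical axis, from 0) of the 10 genes in each library, by group; symbols mark replicate numbers and horizontal lines the group means. Mt1 and Mt2 are highest in all 3 Day 8 libraries, Tsc22d3 and Zbtb16 in Day 8 replicates 2 and 3, and Fkbp5 and Sgk1 in Day 8 replicate 2.

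Tsc22d3 (chrX:140539528-140600522), Zbtb16 (chr9:48651797-48836225) and Klf9 (chr19:23141226-23168129) had a different pattern, in which Day 8 replicates 2 and 3 were high and Day 8 replicate 1 was not. Tsc22d3 stood at 749 and 383 normalized counts in saline, 351 and 392 on Day 3, and 543, 1669 and 1746 on Day 8. The Day 8 libraries were above both Day 3 libraries but replicate 1 lay between the saline-treated libraries. Between Day 8 and Day 3, groups did not overlap in either direction for 31.5% of genes. Zbtb16 stood at 75.2 and 17.6 in saline, 36.2 and 21.3 on Day 3, and 34.2, 325 and 372 on Day 8. Replicates 2 and 3 were above every other library and replicate 1 lay within the range of Day 3. Klf9 stood at 3105 and 1161 in saline, 1136 and 1270 on Day 3, and 1075, 3806 and 3795 on Day 8. Here saline replicate 1 approached the level of Day 8 replicates 2 and 3, while Day 8 replicate 1 was the lowest of the 7 libraries.

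From Day 3 to Day 8, Tsc22d3 rose by 1.65 on the log2 scale with a standard error of 0.52 (limma, unadjusted P = 0.0136, adjusted p = 0.693). It was called in 9 of 11 alternative settings. The call was lost without Day 3 replicate 1, at a value of 1.56, and with replicate number as a block. Zbtb16 rose by 2.49 with a standard error of 1.05 (limma, unadjusted P = 0.0442, adjusted p = 0.697), although the groups overlapped. Its call was lost without Day 3 replicate 1 or 2 and without Day 8 replicate 2 or 3, at values of 2.85, 2.12, 2.01 and 1.89. It was also lost with no filter on low values (limma, unadjusted P = 0.104) and with replicate number as a block. Zbtb16 was thus called in 5 of 11 alternative settings. Klf9 differed by 1.05 with a standard error of 0.60 (limma, unadjusted P = 0.119). Without Day 8 replicate 1 the values were 2.19 for Tsc22d3, 3.58 for Zbtb16 and 1.65 for Klf9, and all 3 were called (limma, adjusted p = 0.0471, 0.0683 and 0.124).

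Against saline, none of these 3 genes was called on Day 8. By edgeR the log2 difference was 2.40 for Zbtb16 with a standard error of 1.06 (unadjusted P = 0.0567). It was 1.24 for Tsc22d3 with a standard error of 0.55 and 0.57 for Klf9 with a standard error of 0.60 (edgeR, unadjusted P = 0.0596 and 0.376). Without Day 8 replicate 1, Zbtb16 differed by 2.92 and Tsc22d3 by 1.60 and both were called (edgeR, unadjusted P = 0.00415 and 0.00494). Klf9 differed by 0.088 without saline replicate 2 and by 1.29 without saline replicate 1. On Day 3 the differences from saline were -0.66 for Klf9, -0.53 for Tsc22d3 and -0.39 for Zbtb16, with standard errors of 0.66, 0.57 and 1.15. The Day 3 values of Klf9 and Zbtb16 turned to 0.049 and 0.64 without saline replicate 1.

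Other gene groups also differed between Day 8 replicates 2 and 3 and Day 8 replicate 1. The median of 9 progesterone-induced uterine genes, centred on each gene's mean, was 1.64 and 1.83 on the log2 scale in these libraries, -0.039 in Day 8 replicate 1 and between -1.02 and -0.45 elsewhere. The median of 7 oestrogen-induced genes was -1.75 and -1.13 in the same 2 libraries and between 0.12 and 0.82 in the other 5. Macrophage markers summed to 4214 and 4314 normalized counts in Day 8 replicates 2 and 3 and to 1961 in replicate 1, with 3672 to 6558 in saline and 2184 to 2643 on Day 3. Endothelial markers summed to 2508 and 2563 in those replicates and to 1355 in replicate 1, with 1401 to 2011 in saline and 1570 to 1728 on Day 3. Smooth muscle markers summed to 35288 and 32756 in those replicates and to 15614 in replicate 1, with 15786 to 28074 in saline and 25061 to 30913 on Day 3. Stromal markers summed to 107490 and 121740 in those replicates and to 62963 in replicate 1. They summed to 93857.5 and 106945 in saline and 117481 and 129493 on Day 3. Epithelial markers summed to 4234 and 7342 in those replicates and to 9689 in replicate 1. They summed to 6556 and 8548 in saline and 8469.5 and 8342 on Day 3. Against Day 3, where 4.7% of all genes were called in either direction, 3 of 9 progesterone-induced genes were called higher on Day 8 (Ihh, Fst and Cyp26a1), 3 of 7 oestrogen-induced genes lower (Sprr2f, Padi1 and Muc1), and 0 of 6 macrophage, 0 of 5 endothelial and 0 of 5 smooth muscle markers. Both counts of 3 fell to 1 without Day 3 replicate 1 or 2 and without Day 8 replicate 2 or 3, and without Day 8 replicate 1 they were 5 and 4. Over all genes, 1708 of 15270 were called between Day 8 and Day 3 without Day 8 replicate 1. On Day 8 against saline, 2.94% of all genes were called. Called higher were 3 of 9 progesterone-induced genes (Il13ra2, Cyp26a1 and Calca) and 2 of 5 smooth muscle markers (Actg2 and Des). Called lower were 1 of 7 oestrogen-induced genes (Ltf) and 1 of 6 macrophage markers (Cd68), and 0 of 5 endothelial markers were called. Of 5 stromal and 5 epithelial markers, 0 were called on Day 8 against saline or Day 3. Actg2 was also called higher on Day 3 than in saline. The part of these genes and markers in the Tsc22d3, Zbtb16 and Klf9 values was not tested, and in whole tissue fewer cells of a type and less RNA per cell cannot be told apart.

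**Figure D2:**
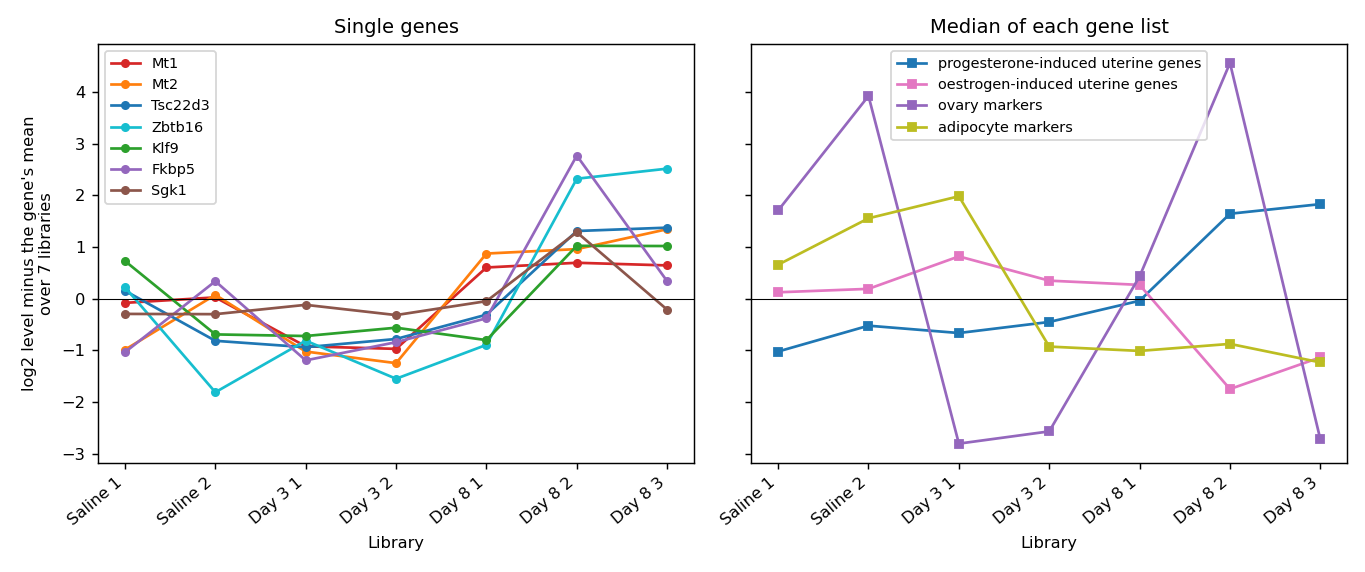
Log2 level minus the gene's mean over 7 libraries (vertical axis) for 7 genes on the left, and the median of the same measure over 4 gene lists on the right, by library. Mt1 and Mt2 are above 0 in all 3 Day 8 libraries, whereas Tsc22d3, Zbtb16 and Klf9 are above 1 in Day 8 replicates 2 and 3 and below 0 in replicate 1, as are the progesterone-induced genes (1.64, 1.83 and -0.039).

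Fkbp5 (chr17:28398753-28486149) and Sgk1 (chr10:21882184-21999903) stood apart in 1 library. Fkbp5 was at 96.0 and 250.06 normalized counts in saline, 85.9 and 110.0 on Day 3, and 152, 1351 and 250.01 on Day 8. Day 8 replicate 2 was 5.40-fold above replicate 3, which was level with saline replicate 2. Sgk1 was at 153 and 152 in saline, 173 and 151 on Day 3, and 182, 459 and 162 on Day 8. All libraries but Day 8 replicate 2 lay between 151 and 182.

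Fkbp5 was not called on Day 8, with a log2 difference of 1.68 from saline (standard error 0.96, edgeR unadjusted P = 0.124) and 1.92 from Day 3 (standard error 0.85, limma unadjusted P = 0.0531). Without Day 8 replicate 2 its difference from saline was 0.19, and without Day 8 replicate 1 it was 2.13 and was called (edgeR, unadjusted P = 0.0485). Sgk1 differed from saline by 0.80 with a standard error of 0.50 (edgeR, unadjusted P = 0.152) and by 0.18 without Day 8 replicate 2. The difference of Sgk1 between Day 8 and Day 3 was 0.56, and that between Day 3 and saline 0.079, with standard errors of 0.44 and 0.49. On Day 3, Fkbp5 differed from saline by -0.67 with a standard error of 0.93.

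The library with the highest Fkbp5 and Sgk1 was also the one with the most ovary RNA. The steroid-producing enzyme gene Cyp11a1 stood at 7422 normalized counts in Day 8 replicate 2, 932 in saline replicate 2 and 187 in saline replicate 1, and at 76.8 and 1.5 in Day 8 replicates 1 and 3. Fkbp5 was second highest in saline replicate 2 and Day 8 replicate 3, with ovary sums of 10974 and 98.7. Of 7 ovary markers, 0 were called between Day 8 and saline, where 2.94% of all genes were called. Against Day 3, where 4.7% of all genes were called, 2 were called higher on Day 8 (Hsd3b1 and Cyp17a1). On Day 3, 4 were called lower than in saline (Cyp17a1, Hsd3b1, Inha and Cyp11a1), where 4.56% of all genes were called. Cyp11a1, Cyp17a1 and Cyp19a1 were at 0 in Day 3 replicate 2. The part of ovary RNA in the Fkbp5 and Sgk1 values was not tested.

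Promoter windows of the glucocorticoid-responsive genes other than Zbtb16 were searched for the hexamers AGAACA and TGTTCT. Together, 3 bases apart, these make up the palindromic glucocorticoid response element that the progesterone receptor also binds. The whole palindrome was found in 3 of 32851 windows (0.00913%), and 1 of these belonged to Sgk1, while 19.0% of windows held at least 1 hexamer. It is shown with the palindrome in capitals, at -189 to -175 from that start.
Sgk1, chr10:21993676-21993740, plus strand: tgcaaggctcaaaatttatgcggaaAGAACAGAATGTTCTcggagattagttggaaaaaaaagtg
This stretch lies within the Sgk1 gene and overlaps no annotated exon of GENCODE M21. Sgk1 had 6 windows and Tsc22d3 had 3, of which 1 window of Tsc22d3 held a single hexamer, and the windows of Fkbp5 and Klf9 held none. Response elements outside these windows were not searched.

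The receptor gene was not called in any comparison. Nr3c1 stood at 878 and 529 normalized counts in saline, 481 and 480 on Day 3, and 457, 599 and 586 on Day 8. Saline replicate 1 was the highest library, and the other 6 lay between 457 and 599. Its log2 difference was -0.33 on Day 8 against saline (standard error 0.30, edgeR unadjusted P = 0.307), -0.50 on Day 3 against saline (0.30, limma unadjusted P = 0.134) and 0.18 between Day 8 and Day 3 (0.27, limma unadjusted P = 0.540). Without saline replicate 1 the Day 8 difference from saline was 0.012.

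Hsd11b2 (chr8:105518746-105523988), whose product inactivates corticosterone, was highest on Day 3. It stood at 483 and 1089 normalized counts in saline, 1657 and 2006 on Day 3, and 1072, 946 and 1096 on Day 8. Both Day 3 libraries were above all others, and the Day 8 libraries were close to saline replicate 2. Groups did not overlap in either direction for 46.2% of genes between Day 3 and saline and 31.5% between Day 8 and Day 3. Hsd11b2 rose on Day 3 by 1.33 on the log2 scale with a standard error of 0.36 (limma, unadjusted P = 0.00652, adjusted p = 0.629), and was called in 9 of 10 alternative settings. The exception was the fit without saline replicate 1, at 0.75, and without saline replicate 2 the value was 1.92. Between Day 3 and Day 8 it differed by -0.82 with a standard error of 0.33 (limma, unadjusted P = 0.0398, adjusted p = 0.697), a 1.76-fold difference under the threshold, and Day 8 differed from saline by 0.40 with a standard error of 0.39.

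Hsd11b1 (chr1:193221640-193264045), whose product regenerates corticosterone, was counted by few reads, between 14 and 91 in the libraries deposited as counts. It stood at 64.3 and 47.9 normalized counts in saline, 72.5 and 30.4 on Day 3, and 17.3, 71.1 and 58.8 on Day 8, and all groups overlapped. The log2 differences were -0.18 on Day 8 and -0.23 on Day 3 against saline, with standard errors of 0.65 and 0.73, and -0.16 between Day 8 and Day 3 with a standard error of 0.66. Hsd11b1 is also expressed in fat. The 9 adipocyte markers summed to 26372 normalized counts in Day 3 replicate 1 and 3059 in Day 3 replicate 2. In saline they summed to 10098 and 28619, and on Day 8 to 2460 to 3847. On Day 8, 8 of them were called lower than in saline, where 2.94% of all genes were called. Against Day 3, where 4.7% of all genes were called, 2 were called lower on Day 8 (Lep and Adipoq). Between Day 3 and saline 0 of the 9 were called, beside 4.56% of all genes. The part of these markers in the Hsd11b1 values was not tested.

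Counted over the 10 members, 4 were called between Day 8 and Day 3 (Mt1, Mt2, Tsc22d3 and Zbtb16, all higher), where 4.7% of 15270 genes were called. Day 8 against saline gave 1 called member (Mt2, higher), with 2.94% of 15388 genes called, and Day 3 against saline gave 1 (Hsd11b2, higher), with 4.56% of 15270. The median log2 fold change of the members was 1.32, 0.80 and -0.52 in these 3 comparisons, and that of all genes was -0.0022, -0.0078 and 0.015. Groups did not overlap for 5 members between Day 8 and Day 3, with 31.5% of genes in the same state, for 3 between Day 8 and saline, with 18.8%, and for 4 between Day 3 and saline, with 46.2%. At an adjusted p of 0.1 neither a member nor any other gene passed in the 3 comparisons (0% each, edgeR for Day 8 against saline and limma for the others). At an unadjusted P under 0.05 there were 658 genes between Day 8 and saline, 1121 between Day 3 and saline and 1087 between Day 8 and Day 3, and DESeq2 passed 49 genes at the adjusted p of 0.1 between Day 8 and saline, Mt2 among them (adjusted p = 0.0886). Without quantile normalization the median of all genes moved by -0.26 between Day 3 and saline and the calls changed from 304 higher and 393 lower to 114 and 946, while the Mt1 and Hsd11b2 differences were -0.96 and 1.21. With edgeR on counts estimated for Day 3 replicate 1, the calls between Day 3 and saline were 162 higher and 602 lower, and those between Day 8 and Day 3 were 563 and 265 in place of 350 and 367.

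**Figure D3:**
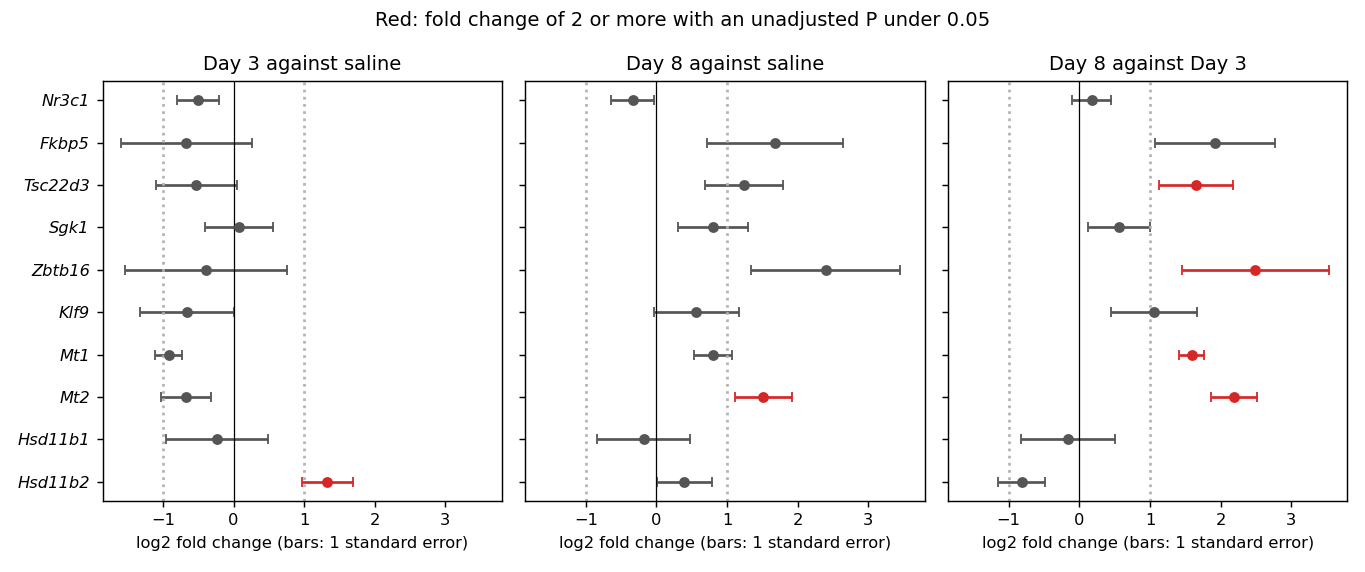
Log2 fold change with 1 standard error (horizontal axis) of each of the 10 genes in 3 comparisons; dotted lines mark a fold change of 2 and red marks called genes. Mt1 (1.59) and Mt2 (2.19) have the smallest errors among the genes called between Day 8 and Day 3, and Hsd11b2 (1.33) is the only one called between Day 3 and saline.

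**Figure D4:**
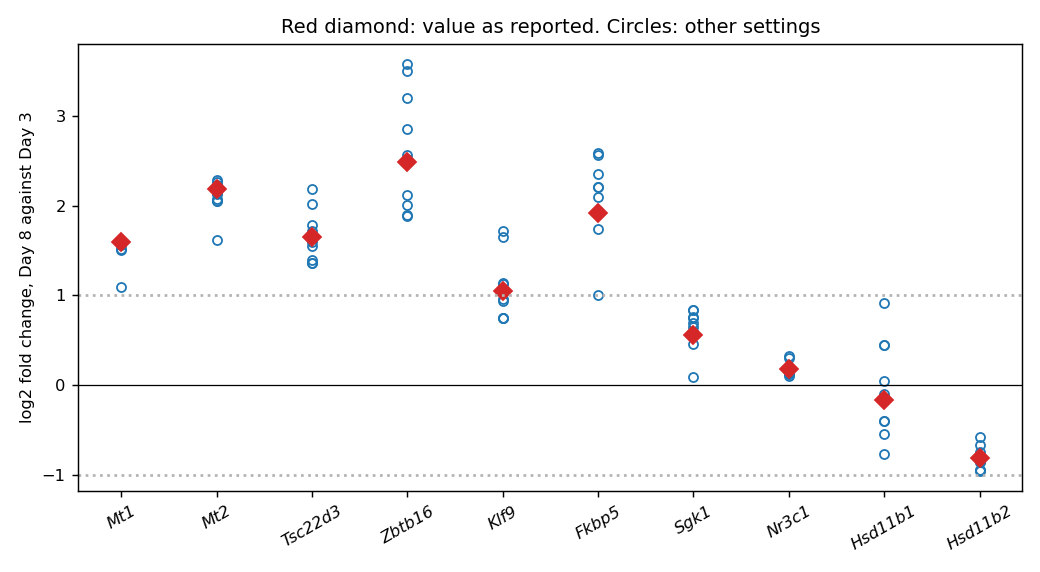
Log2 fold change between Day 8 and Day 3 (vertical axis) of each gene as reported (red diamond) and in 11 alternative settings (circles). Mt1 stays between 1.10 and 1.61 and Mt2 between 1.62 and 2.29, whereas Hsd11b1 falls on both sides of 0.

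A list of 24 other genes known to be induced by glucocorticoids was counted in the same way. On Day 8 against saline, 5 of 23 tested genes were called higher and 0 lower, where 2.94% of all genes were called in either direction, and the median log2 fold change of the list was 0.28. They were Cebpd, a transcription factor, Errfi1, an inhibitor of EGF receptor signalling, the sulphated steroid transporter gene Slc10a6, the arrestin-domain gene Arrdc2 and the hypoxia-inducible factor gene Hif3a. Cebpd stood at 265 and 294 normalized counts in saline, 442 and 446 on Day 3, and 470, 967 and 1143 on Day 8, a log2 difference of 1.56 with a standard error of 0.42 between Day 8 and saline (edgeR, unadjusted P = 0.00723, adjusted p = 0.956). Every Day 8 library of Cebpd was above both saline-treated libraries, where groups did not overlap in either direction for 18.8% of genes. Errfi1 stood at 129 and 101 in saline, 136 and 152 on Day 3, and 112, 662 and 748 on Day 8, with replicate 1 again apart. Hif3a had 1 raw count in each saline-treated library and 7, 53 and 23 on Day 8.

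Between Day 8 and Day 3, 3 of the 24 genes were called higher, namely Hif3a, the clock gene Per1 and the G protein regulator Rgs2. Lcn2 was called lower, where 4.7% of all genes were called in either direction. Rgs2 stood at 8219 and 5472 normalized counts in saline, 2595 and 2518 on Day 3, and 2481, 21043 and 22422 on Day 8. Lcn2, which encodes a siderophore-binding protein, went the opposite way, at 1007 and 1816 in saline, 3603 and 3375 on Day 3, and 2429, 72.2 and 81.8 on Day 8. In both genes Day 8 replicates 2 and 3 stood apart from the other 5 libraries, with replicate 1 of Rgs2 next to Day 3 and that of Lcn2 between saline and Day 3. Leaving out Day 8 replicate 1 raised calls over all genes from 453 to 1027 against saline and 717 to 1708 against Day 3. Leaving out Day 8 replicate 2 gave 475 and 494. Without Day 8 replicate 1, the list genes called higher numbered 9 against saline and 9 against Day 3. Without Day 8 replicate 2 these list genes numbered 4 and 0. Against saline they numbered 2 without saline replicate 1 (Cebpd and Hif3a), 4 without saline replicate 2 and 3 without Day 8 replicate 3. Against Day 3 they numbered 1 without Day 3 replicate 1 (Per1) and 0 without Day 3 replicate 2 or Day 8 replicate 3. On Day 3 against saline 0 of 24 were called, with a median of 0.27, where 4.56% of all genes were called. Of 9 receptor chaperones and coregulators, 0 were called on Day 8 against saline or Day 3, where 2.94% and 4.7% of all genes were called. The corepressor gene Ncor1, 1 of the 9, was called lower on Day 3 than in saline, beside the same 4.56%. It stood at 6826 and 2953 in saline against 2153 and 2094 on Day 3. That call was lost without saline replicate 1, Day 3 replicate 1 or Day 3 replicate 2, and with edgeR on estimated counts. The progesterone and oestrogen receptor genes Pgr and Esr1 were not called in any comparison, while the mineralocorticoid receptor gene Nr3c2 stood between 0 and 3.8 normalized counts.

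**Figure D5:**
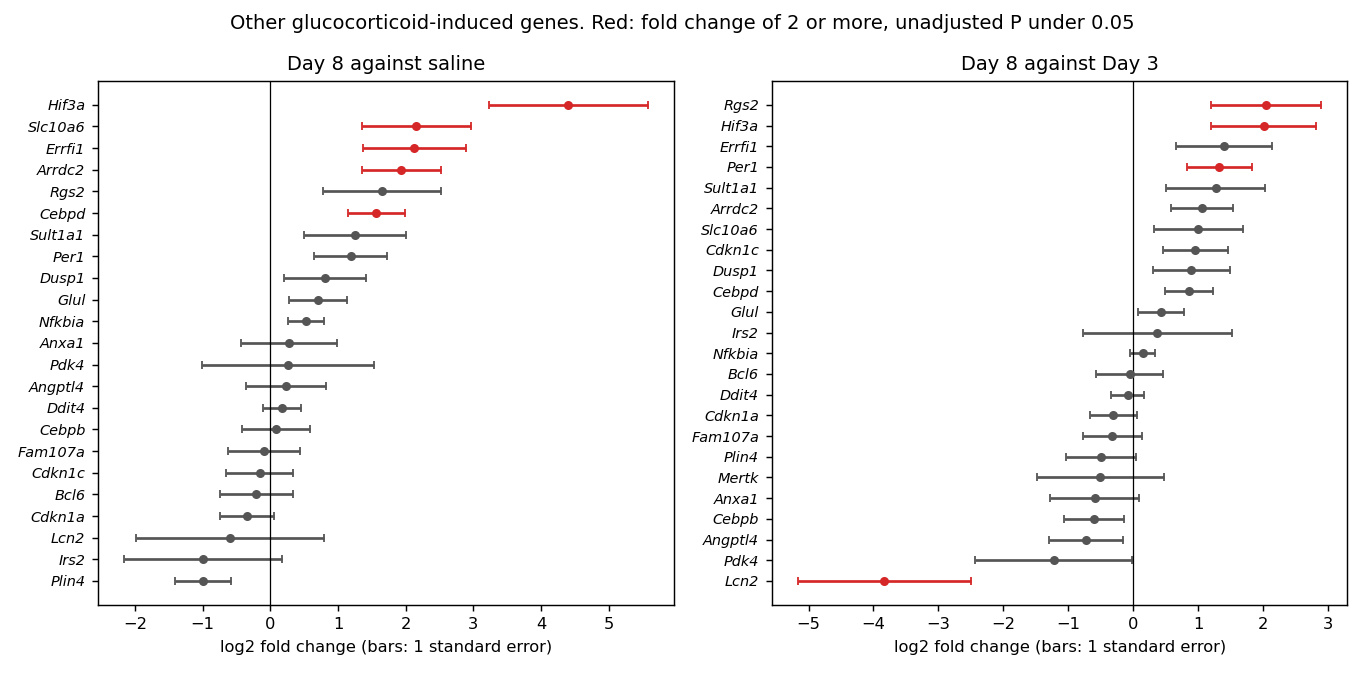
Log2 fold change with 1 standard error (horizontal axis) of other glucocorticoid-induced genes that were tested, ordered by value, on Day 8 against saline (left, 23 genes) and against Day 3 (right, 24 genes); red marks called genes. Called genes are at the upper end on the left (5 higher, 0 lower), and on the right Lcn2 is at the lower end (3 higher, 1 lower).

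Zinc handling was described by 22 genes for transporters, the factor gene Mtf1 and the minor metallothioneins. On Day 8 against saline 2 of 20 tested genes were called higher, namely the zinc importers Slc39a4 and Slc39a8, and 0 lower, with a list median of 0.24, where 2.94% of all genes were called. Slc39a4 stood at 836 and 621 normalized counts in saline, 886 and 886 on Day 3, and 901, 3945 and 6127 on Day 8, a log2 difference of 2.41 with a standard error of 0.77 (edgeR, unadjusted P = 0.0161, adjusted p = 0.956). Slc39a8 stood at 97.1 and 289 in saline, 357 and 306 on Day 3, and 238, 803 and 1410 on Day 8. Both importers were high in Day 8 replicates 2 and 3 and not in replicate 1, in which Mt1 and Mt2 stood at 3878 and 3766. The part of zinc import in the Mt1 and Mt2 values was not tested. Without saline replicate 1, 0 zinc handling genes were called between Day 8 and saline, and without Day 8 replicate 3 only Slc39a4 was. Against Day 3, 1 of 19 was called higher (Slc39a4) with a list median of -0.033, where 4.7% of all genes were called. That count was 2 without Day 8 replicate 1 and 0 without any other Day 3 or Day 8 library, and on Day 3 against saline 0 of 19 were called. Mtf1 stood at 394 and 598 in saline, 771 and 723 on Day 3, and 735, 682 and 587 on Day 8, and the zinc exporter gene Slc30a1 at 446 and 246, 250 and 257, and 319, 499 and 370. Neither was called in any comparison.

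Likeness between members was read from Pearson correlations of log2 values over the 7 libraries, which fall into the same 3 groups, and are given without a test. The highest were 0.97 for Tsc22d3 with Zbtb16, 0.92 for Tsc22d3 with Klf9, 0.92 for Mt1 with Mt2, 0.92 for Zbtb16 with Klf9 and 0.87 for Fkbp5 with Sgk1. Mt2 correlated at 0.71 with Tsc22d3 and 0.41 with Klf9. Nr3c1 correlated at -0.87 with Hsd11b2 and at 0.72 with Klf9. Among 10373 genes with a mean log2 level of at least 6, those most like Zbtb16 were Asl, Scara5 and Inmt (0.99 each), and those most like Tsc22d3 were Nsg1, Gbp3 and Scara5 (0.99 each). Scara5 was shared by both, at 156 and 67.5 normalized counts in saline, 78.5 and 79.2 on Day 3, and 85.8, 499 and 503 on Day 8. Genes most like Mt2 were Rsrp1 (0.99), Sun1 (0.95) and Nme4 (0.94), and Nme4 had its highest value, 553, in Day 8 replicate 1, with 443 and 501 in replicates 2 and 3 and 243 to 288 in the other 4 libraries. Fkbp5 was most like Id3 (0.97), Akr1b10 (0.96) and Tspan3 (0.94), Hsd11b1 most like Btg3 (0.98), Epb4.1l5 (0.97) and Cebpa (0.94), and Hsd11b2 most like Ufm1 (0.99), Tmem45a (0.98) and Pi4k2b (0.98).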

How the data were processed

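QuantSeq 3′ mRNA sequencing of 7 mouse uterine libraries was analysed. Reads had been aligned by the authors using Bowtie2 and counted per gene by Bedtools coverage, multiple alignments included, with quantile normalization in edgeR. Their processing notes name mm10 and hg19, without versions. Raw read counts by gene symbol were deposited for 6 libraries. The deposited table of Day 3 replicate 1 holds log2 of normalized counts plus 1. After that was undone and a factor of 1.0515 divided out, 96.0% of 2569 low values came within 0.1 of a whole number, where chance gives 20%.

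Groups were taken from the labels. The Day 8 and saline groups were compared in edgeR 4.0.16 (R 4.3.3, glmQLFit and glmQLFTest, TMM, filterByExpr) on 6 count libraries, with 3 groups, 3 residual degrees of freedom and 15388 genes. Standard errors were computed from the change and its F statistic. Day 3 was compared with saline and Day 8 by limma 3.58.1 (lmFit, eBayes with trend) on quantile-normalized log2(normalized count + 1) of 7 libraries, with 4 residual degrees of freedom and 15270 genes with a mean of at least 2. That scale understates changes of low genes. A gene was called at a fold change of at least 2 and an unadjusted P under 0.05, and a Benjamini-Hochberg adjusted p of 0.1 over all genes was also counted. The common biological coefficient of variation was 42.2%. At 3 counts a gene has between 0.244 and 0.434 CPM, which covers counting error alone. The fits were tested on simulated data.

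The members and lists were chosen with earlier results of these data known. Genes were named by a rule: all members, every list gene called in any comparison, marker genes that move with a member, and, for members spanning over 2 log2 units, the 3 genes of highest Pearson r among those with a mean of at least 6. Not all are described. Scara5 and Nme4, and genes given for comparison such as Mtf1, Slc30a1, Nr3c2, Pgr and Esr1, were described with their values in view. Alternatives were upper-quartile normalization, DESeq2 1.42.0, other filters and pseudocounts, no quantile normalization, edgeR with estimated counts, only the groups compared, a block for replicate number, counting Day 8 replicate 1 as Day 3, and leaving out each library. List counts under these were added after the data were seen.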

Additional observations from a re-analysis of the deposited data

Results flagged for a closer look

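The difference between the Day 8 and Day 3 CXCL12 libraries passed the test of the difference itself for 4 members. By limma on the log2 scale, it was 1.59 for Mt1, with all 3 Day 8 libraries higher than both Day 3 libraries (adjusted p = 0.264). It was 2.19 for Mt2, also higher in 3 of 3 Day 8 libraries (adjusted p = 0.457). Groups did not overlap in either direction for 31.5% of genes in this comparison. Tsc22d3 differed by 1.65 (adjusted p = 0.693) and Zbtb16 by 2.49 (adjusted p = 0.697), with Day 8 replicates 2 and 3 highest in both. Day 8 replicate 1 of Tsc22d3 was above both Day 3 libraries, and that of Zbtb16 lay within the Day 3 range. All 4 passed the fold change of 2 at an unadjusted P under 0.05, and none passed the adjusted p of 0.1.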

How the results depend on the processing

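Of 340 values of single members under other settings, 296 kept direction and side of the threshold, 20 came to pass it, 10 lost it and 14 changed sign. All sign changes were in differences that had not passed. With Day 8 replicate 1 counted with Day 3, Hsd11b1 differed by 0.23 from saline and 0.91 from Day 3, and with edgeR on estimated counts by 0.042 from Day 3. Without quantile normalization the Day 3 difference of Sgk1 from saline was -0.21. Leaving out single libraries gave, against saline on Day 8, -0.61 to 0.012 for Nr3c1, -0.57 to 0.23 for Hsd11b1 and -0.082 to 1.12 for Hsd11b2, and against saline on Day 3, -1.35 to 0.017 for Fkbp5, -0.020 to 0.18 for Sgk1, -1.41 to 0.64 for Zbtb16, -1.37 to 0.049 for Klf9 and -0.84 to 0.37 for Hsd11b1. Against Day 3 on Day 8 it gave -0.77 to 0.45 for Hsd11b1.

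Genes called on Day 8 against saline numbered 453, 1094 with Day 8 replicate 1 counted with Day 3, and 229 to 1527 over left-out libraries; 0, 58 and 0 to 15 passed the adjusted p, and 49 by DESeq2. Members called numbered 1, 4 by DESeq2, 3 without a filter, 3 with Day 8 replicate 1 counted with Day 3, and 1 to 4 over left-out libraries. For Day 3 against saline the genes called numbered 697, 1060 without quantile normalization and 276 to 2894 over left-out libraries, and 36 without a filter and 0 to 2312 passed the adjusted p. For Day 8 against Day 3 they numbered 717, 1827 with Day 8 replicate 1 counted with Day 3 and 298 to 1708 over left-out libraries, and 28 without a filter, 1360 and 0 to 479 passed the adjusted p, with 2 to 6 members called. The causes were not tested. Deviations of same-numbered libraries from their group means correlated between -0.168 and -0.002. In a group of 2 libraries the deviations mirror each other, so these values cannot show whether replicate numbers pair the libraries. With the number as a replicate block, 157 genes and 2 members (Mt2 and Fkbp5) were called between Day 8 and saline and 451 genes and 3 members (Mt1, Mt2 and Fkbp5) between Day 8 and Day 3. Where leaving out a library left 1 in a group, that library was assumed to vary like the others.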
